A study of Mus musculus with 2 samples.

Results

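The cells described here are droplet barcodes of mouse dorsal skin that were chosen by the RNA they contained. A barcode was taken when it had UMIs (unique molecular identifiers, 1 per captured RNA molecule) of at least 4 of the 8 genes Ntn1, Tmtc1, Sox5, Eda, Edar, Tspan18, Timp3 and Trpv4. It also had to have no UMI of Shh, UMIs of fewer than 3 of the 7 cycling genes Mki67, Top2a, Knl1, Aspm, Kif14, Neil3 and Cenpf, and fewer than 20 UMIs per 10000 from Col1a1, Col1a2 and Col3a1 together. The rule found 2056 of the 62289 barcodes that had 200 to 8000 genes and at most 10% mitochondrial UMIs. Of these, 1360 came from the control library and 696 from the testosterone propionate (TP) library. Both groups were male C3H/HeN mice, 7 weeks old at the start and 9 weeks old when the skin was taken. The dorsal skin was shaved, and the TP mice, a model of androgenetic alopecia, received 0.5 mg TP per day under the skin while the control mice received vehicle. Skin of 15 mice was pooled in each group, digested with collagenase D and made into 1 library of whole skin, so neither group has a replicate, no test between the groups was possible and the intervals below (95%, exact) cover counting error only. The group treated with TP and the antibody is not analysed here.

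Eda encodes ectodysplasin, a ligand of the tumour necrosis factor family, and Edar its receptor, which signals through the adaptor Edaradd to NF-κB. This pathway is needed to form hair placodes and acts again in the adult hair cycle. Ntn1 encodes netrin-1, a secreted guidance cue read by the receptors Dcc, Neo1 and the Unc5 family. The lower hair follicle holds the proliferating matrix around the dermal papilla, the layers of hair shaft and inner root sheath that the matrix produces, and the outer root sheath, whose lower part carries the R-spondin receptor Lgr5. In the mouse genome build GRCm38, Eda lies at chrX:99975606-100400760, Edar at chr10:58600780-58675696, Ntn1 at chr11:68209364-68386826 and Sox5 at chr6:143828425-144782287, and the library chemistry primes from the 3′ end of transcripts.

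The control library held 130999979 UMIs in 45709 barcodes and the TP library 166929585 UMIs in 25931 barcodes. The cells chosen by the rule had a median of 2256.5 UMIs in control and 7506.5 UMIs in TP, against 2162 and 5166 over all barcodes within the limits. The libraries shared 303 barcode sequences, which included 9 of the chosen cells in control and 5 in TP, and no shared barcode was chosen in both.

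The genes of the rule were found in very unequal shares of the chosen cells. Sox5, an SOXD transcription factor, had a UMI in 92.7% of control and 87.9% of TP cells, and Eda in 89.5% and 86.6%. Timp3, an inhibitor of metalloproteinases that binds to the matrix, was found in 72.3% and 81.6%, the O-mannosyltransferase Tmtc1 in 65.5% and 57.9%, and the tetraspanin Tspan18 in 64.4% and 65.7%. The genes that gave the cells their working name were in a minority of them: Ntn1 was found in 34.1% of control and 31.6% of TP cells, and Edar in 16.6% and 20.1%. Trpv4, a calcium-permeable channel, was found in 21.2% and 29.5%. Immune cells, used as the measure of free RNA, had median depths of 2068.5 UMIs in control and 4472 UMIs in TP. Among them Sox5 was found in 25.4% and 15.8%, Eda in 21.5% and 12.5%, Ntn1 in 3.07% and 2.34%, and Edar in 2.63% and 0.780%. For Trpv4 they are not a measure of free RNA, since 7.89% of immune cells in control and 20.3% in TP had a UMI against 3.86% and 7.88% of all other cells. These 8 genes chose the cells and their shares are a description. Because Sox5 and Eda led in both libraries, the cells are called Sox5/Eda cells here. Neither gene was confined to them. Among all other cells Sox5 was found in 44.9% in control and 30.4% in TP, and Eda in 32.4% and 39.3%.

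**Figure D1:**
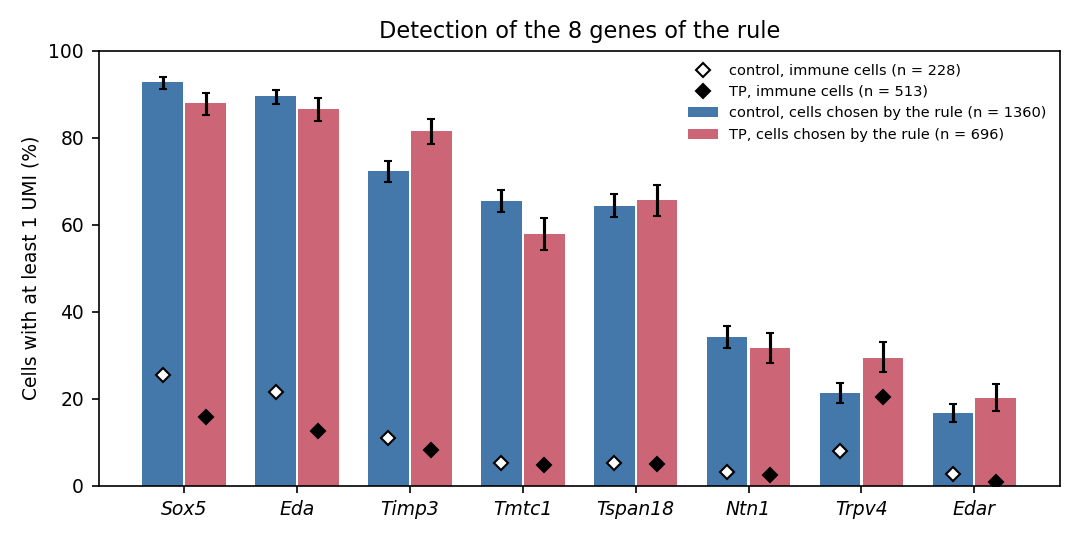
Share of Sox5/Eda cells with at least 1 UMI of each gene of the rule (bars, percent, with exact 95% binomial intervals), in control (n = 1360) and TP (n = 696), and the share among immune cells of the same library as a measure of free RNA (diamonds, n = 228 and 513). Sox5 and Eda lead, Edar is lowest in both libraries at 16.6% and 20.1%, and Trpv4 was found in 20.3% of the immune cells in TP.

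Most Sox5/Eda cells sat at the threshold. Exactly 4 of the 8 genes were found in 807 control cells (59.3%) and 407 TP cells (58.5%), 5 genes in 373 and 189, 6 genes in 148 and 68, 7 genes in 30 and 29, and all 8 in 2 and 3. Just outside the rule, 1822 control and 944 TP barcodes had 3 of the 8 genes and met every other limit. Their median depth of 2364 UMIs in control and 6678 UMIs in TP was close to that of the cells with exactly 4 genes, 2273 and 6539.

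The label of lower follicle epithelium did not hold for all of the cells. At least 3 of 12 dermal papilla genes were found in 212 of the 1360 control cells (15.6%, 13.7–17.6) and in 128 of the 696 TP cells (18.4%, 15.6–21.5). Over all cells of the skin the shares were 12.8% and 9.51%. The 212 and 128 cells were deep, with medians of 4388.5 UMIs in control and 9570 UMIs in TP, and held 28.7% and 28.6% of all UMIs of the Sox5/Eda cells. Their summed level of the papilla list, which picked them, was 12251 CPM (UMIs per 1000000 UMIs of the same cells) in control and 12278 CPM in TP, against 1971 and 974 CPM in all other cells. Over all lists of non-epithelial cells (papilla, fibroblast, dermal sheath and smooth muscle, endothelial, melanocyte, Schwann and immune), 301 control cells (22.1%) and 218 TP cells (31.3%) had UMIs of at least 3 genes of 1 list. The endothelial list was reached by 8 control and 38 TP cells. Over all Sox5/Eda cells the genes with the largest ratios over other cells included Prox1, Reln, Mmrn1, Kdr and Cldn5 of lymphatic and blood endothelium and Notum of the papilla. Prox1 and Mmrn1, both of lymphatic endothelium, were at 5.199 and 4.77 CPM in control and 26.8 and 57.1 CPM in TP. Leaving these cells out gave the epithelial set of 1059 control cells (median 1951 UMIs) and 478 TP cells (median 6449.5 UMIs), in which the papilla list summed to 124 and 60.7 CPM and the endothelial list to 14.8 and 11.6 CPM. There the fibroblast list still summed to 355 CPM in control and 375 CPM in TP, against 348 and 863 CPM in all other cells. The melanocyte list summed to 317 and 116 CPM, against 557 and 349 CPM. The name epithelial set says which markers were left out, and a deeper cell is more easily left out. Results below are for the epithelial set unless all Sox5/Eda cells are named.

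In this set a transcription factor of epithelium stood further from the immune cells than the keratin Krt14 did, and in control further than Krt71 did. With every cell thinned to 2000 UMIs (506 control and 443 TP cells deep enough), Trp63, the master factor of stratified epithelium, was found in 62.3% of control cells and 70.2% of TP cells, against 34.7% and 17.6% of immune cells. Without thinning the shares were 68.6% and 88.9%, against 31.6% and 27.1%. A list of 12 epithelial genes, taken whole, lay lower in the set than in other cells (median log2 ratio -0.39 for control, -0.47 for TP). None of the 12 was 2-fold above other cells in both libraries. Summed over the list, the control set reached 5168 CPM, immune cells 5262 CPM and other cells 6767 CPM. For TP these sums were 8193, 7247 and 12523.5 CPM. The basal keratin Krt14 was found in 37.0% and 58.9% of thinned cells against 33.1% and 45.0% of thinned immune cells (unthinned 38.3% and 80.3% against 36.8% and 64.1%), and its level was lower in the epithelial set than in all other cells of the same library, by 0.98 and 1.33 on the log2 scale. In control, the inner root sheath keratin Krt71 was in 70.6% of thinned cells and 60.5% of thinned immune cells (unthinned 81.3% and 70.2%), and was near its level in other control cells (log2 ratio of -0.02). TP differed: the median log2 ratio of the inner root sheath list over other cells was -0.22 in control and 0.98 in TP. The medians were -0.46 and 0.07 for the lower outer root sheath list and -0.14 and 0.70 for hair matrix. They were -0.49 and -0.44 for hair shaft and -1.17 and 0.0047 for companion layer. In control the median of each of these lists of the lower follicle was thus negative.

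Apart from the genes of the rule, the leaders of the epithelial set over all other cells included receptors of the WNT amplifiers called R-spondins, amino acid transporters and genes of S phase entry. Since the cells were chosen by their RNA, these levels are a description. Lgr5 stood first: 203 CPM (187–220) in control against 28.5 CPM in all other control cells, and 317 CPM (300–335) in TP against 57.6 CPM, a log2 ratio of 2.84 and 2.46. Its relative Lgr6 was at 139 against 41.8 CPM in control and 157 against 49.5 CPM in TP. After thinning, Lgr5 was found in 21.5% of control cells and 35.4% of TP cells, with 3.23% and 1.85% of immune cells (unthinned 26.4% and 51.0%, with 3.51% and 3.12%). The T-box factor Tbx1 was at 22.4 against 7.199 CPM in control and 61.7 against 15.2 CPM in TP, and the LIM factor Lhx2, which marks bulge and germ, at 57.5 against 22.3 CPM and 146.9 against 32.3 CPM.

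Ung, which removes uracil from DNA, was at 40.0 CPM against 10.99 CPM in other control cells and 33.1 against 8.26 CPM in TP. Cdt1, which licenses replication origins, was at 47.9 against 15.2 CPM and 29.8 against 9.95 CPM. Dtl, the adaptor that marks Cdt1 for destruction in S phase, was at 116 against 40.3 CPM and 76.6 against 25.5 CPM. Of 17 replication genes that the rule did not use and that had enough UMIs, Mcm2, Mcm3, Mcm4, Mcm5, Mcm6 and Hells were at least 2-fold above all other cells in both libraries, with Mcm6 at 94.4 against 43.0 CPM in control and 86.5 against 32.9 CPM in TP. The mitotic genes Cdk1 and Ccnb1 were lower than in other cells in both, at 32.7 against 41.5 CPM and 30.0 against 39.7 CPM in control. The limit on cycling genes was part of how the cells were chosen. Cells that met the rule apart from that limit had a higher sum of the replication list, 4032 and 6792 CPM against 3776 and 3116 CPM in the epithelial set. Unlike the set, they were not filtered for markers of other types. In all Sox5/Eda cells, which were not filtered either, the sum was 2919 and 2252 CPM.

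Counting a gene as leading when it was at least 2-fold above all other cells in both libraries, 102 of 8327 genes with at least 100 UMIs (1.22%) led the epithelial set, and 285 of 10350 genes (2.75%) led all Sox5/Eda cells. Among the guidance genes the leaders were Ntn1 itself, Robo1 (2363 against 1056 CPM in control, 1036 against 451 CPM in TP), Sema3e (58.9 against 18.0 CPM, 52.6 against 18.7 CPM) and Sema5a. Of the hedgehog list only Gli2, a transcription factor of the pathway, passed, at 322 against 121 CPM and 209 against 70.6 CPM, while the receptor Ptch1 stood 0.83 above other cells on the log2 scale in control and 1.14 in TP. Of the WNT list Lgr5, Lgr6 and Tcf7l2 passed, of the FGF list Fgf5 and of the Notch list Lfng, and no gene of the BMP, AP-1, heat shock or MHC lists did. Cells that met the rule apart from the cycling limit had list sums near those of the set. Their guidance sum was 6603 and 4101 CPM (6869 and 4431 CPM in the set), WNT 4890 and 3593 CPM (4507 and 3783 CPM) and hedgehog 1582 and 1229 CPM (1569 and 1295 CPM). In cells that met the rule but had Shh, the sums were 4957 and 3820, 5819 and 4899, and 1976 and 1520 CPM. Unlike the set, neither group was filtered for markers of other types. The papilla list summed to 1157 and 309 CPM in the cycling cells and to 897 and 966 CPM in the Shh cells. In all Sox5/Eda cells, also not filtered, the guidance sum was 7298 and 5084.5 CPM, WNT 6140 and 5428 CPM and hedgehog 2078 and 2045 CPM. Slc38a4, an amino acid transporter, was second after Lgr5 among genes outside the rule, although it was scarce in control (41 UMIs, 14.1 CPM, against 2.83 CPM in other cells). Sorcs2, Enpp1 and P2rx7 were also among the 20 leaders, between 1.52 and 1.95 on the log2 scale. Sox5os4, an antisense transcript at Sox5, also led, and its UMIs may be hard to separate from those of Sox5.

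**Figure D2:**
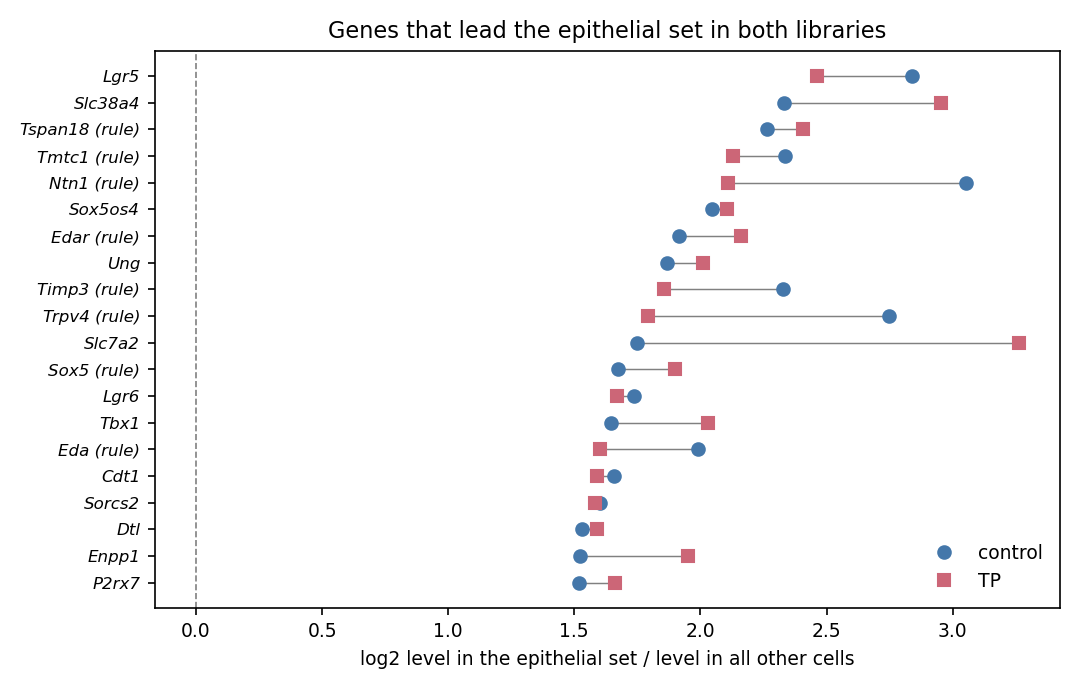
The 20 genes with the largest smaller-of-both-libraries log2 ratio of the epithelial set over all other cells of the same library, control as circles and TP as squares, with the genes of the rule marked. Lgr5 leads the genes outside the rule with 2.84 in control and 2.46 in TP, and Slc7a2 shows the widest gap between the libraries.

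Some of these genes were higher in cells with more genes of the rule, at nearly equal depth in control, and others were not. The groups were made from the genes that chose the cells and are a description. In control, cells of epithelial type with 3, 4, 5 and 6 to 8 rule genes (1371, 617, 296 and 146 cells) had medians of 2037, 1912, 1963.5 and 1995.5 UMIs. Lgr6 was at 50.1, 83.9, 199 and 248 CPM in them, Gli2 at 167, 281, 337 and 464 CPM and Ptch1 at 172, 277, 341 and 484 CPM. Lgr5 went from 59.9 to 173 and 262 CPM and was at 208 CPM in the last group. Tbx1 (16.4, 22.0, 25.5 and 17.5 CPM), Slc38a4 (5.15, 10.1, 25.5 and 7.52 CPM) and Slc7a2 (5.40, 22.0, 23.1 and 7.52 CPM) were also lower in that group. It held 399056 UMIs in all, so its values of these scarce genes rest on few UMIs each. In TP, where the same groups held 644, 264, 137 and 77 cells, Lgr5 was at 145, 308, 305 and 375 CPM, Lgr6 at 49.8, 143, 160 and 205 CPM, and Gli2 at 94.4, 199, 195 and 274 CPM. Tbx1 was at 41.4, 70.7, 60.7 and 30.7 CPM there and Slc7a2 at 71.2, 263, 288 and 167 CPM. Krt71 was lowest in the cells with 6 to 8 rule genes in both libraries, at 782 CPM in control and 119 CPM in TP. Median depths of the TP groups were 6619, 5722.5, 7624 and 7742 UMIs.

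Edar and Ntn1 were found together in few cells, as Edar and Trpv4 were (39 and 37 control cells), and since all of them belong to the rule their overlap is a description. Of the control cells of the epithelial set, those with UMIs of both Edar and Ntn1 were 21.1% of the Edar cells and 10.2% of the Ntn1 cells, while 146 had Edar alone, 345 Ntn1 alone and 529 neither. In TP, 23 cells had both, 98 Edar alone, 127 Ntn1 alone and 230 neither. Cells with Edar alone had medians of 2042.5 and 4990.5 UMIs and those with Ntn1 alone 1910 and 6083 UMIs. Since each gene was in only part of the cells, a cell without a UMI may still express it.

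The cells with Edar alone and those with Ntn1 alone differed in a small number of other genes in both libraries. Of 5578 genes with at least 100 UMIs in these cells, 24 (0.43%) were at least 2-fold higher in the Edar cells in both libraries and 16 (0.287%) in the Ntn1 cells, each count including the gene that split them. The minimum was over both libraries together, so some genes had few UMIs in control. There Pappa had 9 UMIs in Edar cells and 6 in Ntn1 cells, and Cstdc5 had 0 and 4. In TP, 105 of the 163 UMIs of Cstdc5 in Ntn1 cells lay in a single cell. For such genes the control ratio carries little weight. Most differences were seen in a single library: in control 64 genes were 2-fold higher in the Edar cells and 62 in the Ntn1 cells, and in TP 159 and 93. On the Edar side were Lrp4, a co-receptor that modulates WNT signals (150 against 44.6 CPM in control, 245 against 54.4 CPM in TP), the WNT transcription factor Lef1 (984 against 470 CPM, 611 against 204 CPM) and the adhesion molecule Alcam (315 against 108 CPM, 422 against 98.9 CPM). Tenm4, a teneurin of the cell surface, was at 852 against 264 CPM and 709 against 208 CPM, the cadherin Cdh6 at 1042 against 271 CPM and 123 against 49.5 CPM, and the growth factor Ptn at 333 against 157 CPM and 653 against 152 CPM. Runx2 was at 125 against 47.9 CPM and 74.6 against 11.9 CPM. Bach2, Dach1, Pappa, Fn1 and 8 further genes completed this side together with the genes named for TP below.

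On the Ntn1 side the widest difference was in another guidance cue. Slit3, a ligand of the Robo receptors, was at 545 CPM in the Ntn1 cells against 61.0 CPM in the Edar cells in control and 653 against 30.1 CPM in TP. Flrt2, an adhesion protein that binds Unc5 receptors, was at 148 against 35.6 CPM and 187 against 47.3 CPM. The formin Fhod3 was at 500 against 175 CPM and 359 against 54.5 CPM, the transcription factor Creb5 at 619 against 280 CPM and 580 against 278 CPM, and the matrix protein Thbs1 at 74.7 against 28.0 CPM and 124 against 31.6 CPM. The matrix genes Mgp, Bgn and Efemp1 were also on this side. This comparison was added after the data were seen, and its difference was not tested since there are no replicates.

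**Figure D3:**
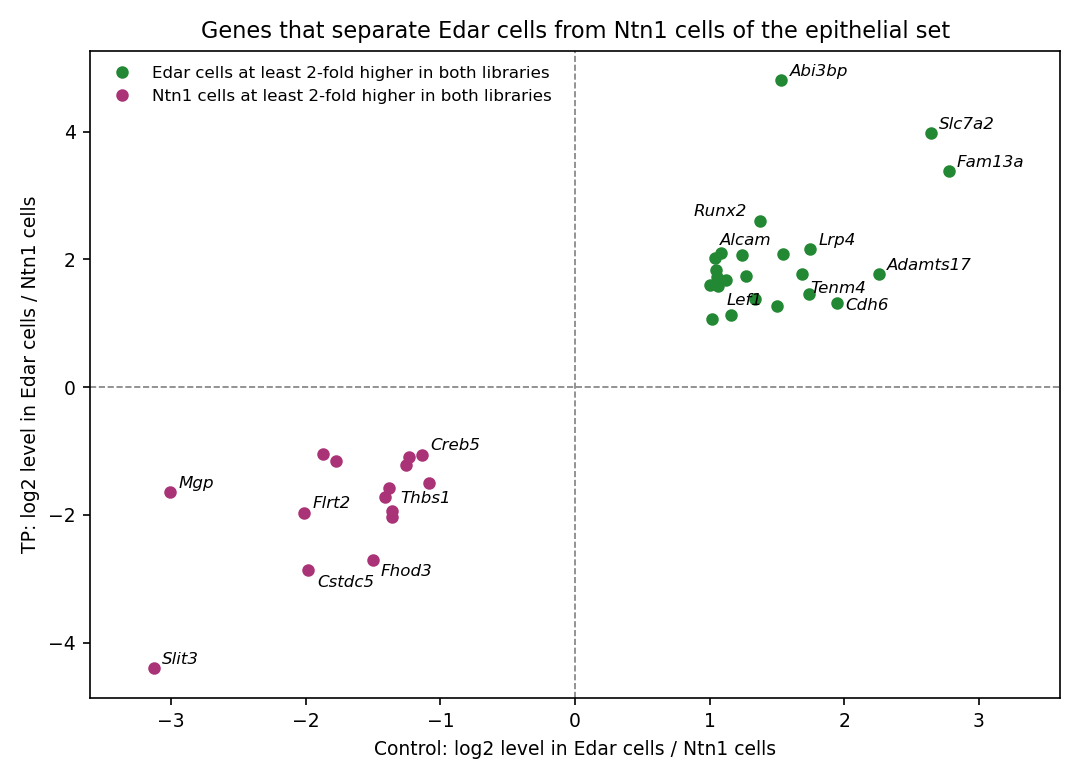
Genes at least 2-fold different between cells with Edar alone and cells with Ntn1 alone in both libraries, with the log2 ratio of Edar cells over Ntn1 cells in control on the horizontal axis and in TP on the vertical axis; Edar and Ntn1 themselves are left out. Abi3bp and Slc7a2 lie far higher in TP than in control, and Slit3 is the lowest point in both libraries.

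The first comparison between the groups was the share of Sox5/Eda cells among all cells. They were 3.22% (3.05–3.39) of the cells in control and 3.47% (3.22–3.73) in TP. The ratio of TP to control was 1.08 (0.983–1.18), whose interval holds equality. The epithelial set made up 2.51% and 2.38%, a ratio of 0.951 (0.852–1.06). The rule asks for 4 detected genes, which a deeper cell meets more easily, and the TP cells were deeper. When every cell was first thinned to 2000 UMIs and shallower cells were left out, 595 of 23326 control cells (2.55%) and 326 of 17042 TP cells (1.91%) met the rule, a ratio of 0.7499 (0.653–0.860). At 1000 UMIs the ratio was 0.481 (0.411–0.561) and at 4000 UMIs 0.810 (0.691–0.949). For the cells without markers of another type, judged at full depth, the ratio was 0.509 (0.432–0.597) at 1000 UMIs, 0.881 (0.757–1.03) at 2000 UMIs and 1.04 (0.854–1.26) at 4000 UMIs. A lower share in TP was thus beyond counting error in that set only at 1000 UMIs.

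**Figure D4:**
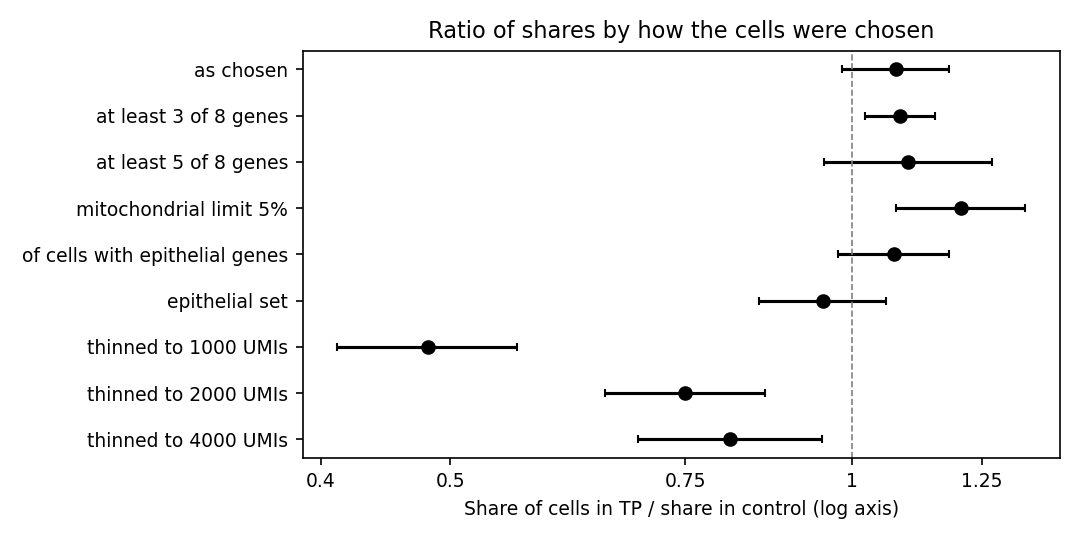
Ratio of the share of Sox5/Eda cells in TP to that in control (points, log axis) with exact 95% intervals for counting error, for the rule as used and for each other way of choosing the cells. The ratio is 1.08 as chosen and between 0.481 and 0.810 when cells are thinned to a fixed number of UMIs first.

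The genes of the rule had lower levels in TP when cells were chosen at full depth, and for Eda, Edar, Sox5 and Timp3 this was no longer so when cells were chosen at equal depth. In the epithelial set Eda was at 1138 CPM in control and 575 CPM in TP, Edar at 85.1 and 51.1 CPM, Sox5 at 2534 and 1439 CPM, Timp3 at 633 and 417 CPM, Ntn1 at 205 and 70.3 CPM, and Tmtc1 at 485 and 155 CPM. In cells chosen at 2000 UMIs, Eda was at 1129 and 1214 CPM, Edar at 98.8 and 110 CPM, Sox5 at 2727 and 2960 CPM and Timp3 at 660 and 803 CPM. Ntn1 and Tmtc1 stayed lower in TP there, at 233 and 163 CPM and at 480 and 320 CPM, and so did Tspan18 (374 and 326 CPM) and Trpv4 (95.6 and 78.1 CPM). These values chose the cells and are given as a description.

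Within the epithelial set 313 of 8327 genes (3.76%) had 2-fold or more of their control level in TP and 295 (3.54%) were lower by as much, and over all Sox5/Eda cells 459 of 10350 genes (4.43%) were higher and 386 (3.73%) lower. Both sets shared 211 of the higher genes (67.4% of those of the epithelial set) and 217 of the lower ones (73.6%). The median gene stood at -0.14 on the log2 scale in the epithelial set, and scaling with TMM factors moved it to 0.02 and the split to 449 higher and 178 lower genes (71.6% higher in place of 51.5%). Over all Sox5/Eda cells the same scaling gave 605 higher and 269 lower genes (69.2% in place of 54.3%). With the rule applied at 2000 UMIs the epithelial set had 89 higher and 102 lower genes. Since the libraries differed as a whole, the values in all other cells of the same libraries are given beside many of the genes. The gene lists below are short, and at the shares of 3.76% and 3.54% few or none of their genes would be past 2-fold.

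Several of the largest differences were spread over many cells. Abi3bp, a protein of the extracellular matrix, had 144 UMIs in control and 3295 UMIs in TP, 49.6 CPM (41.8–58.4) against 833 CPM (805–862), or 16.8-fold (14.2–19.99). In all other cells it was at 28.1 and 115 CPM. After thinning it was found in 4.74% of control cells and 25.7% of TP cells, with 2.42% and 3.23% of immune cells (unthinned 3.40% and 30.8%, with 5.26% and 4.87%). Its TP UMIs were spread over 147 cells, of which the richest held 4.52%.

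Within TP, several of these genes were low in the Ntn1 cells. There Abi3bp was at 1701 CPM in cells with Edar alone, 995 CPM in cells with neither gene and 60.3 CPM in cells with Ntn1 alone, and at 1228 CPM in 58 cells that had Shh as well, whose 50 counterparts in control had 26.0 CPM. The cells with Shh were not filtered for markers of other types. Slc7a2, a transporter of cationic amino acids, was at 20.3 CPM in control and 256 CPM in TP (12.6-fold, 9.69–16.7; 6.10 and 26.7 CPM in other cells), and within TP at 567 CPM in Edar cells and 35.6 CPM in Ntn1 cells. Fam13a, which has a RhoGAP domain, was at 7.92 and 156 CPM (19.7-fold, 13.01–31.3; 7.02 and 20.7 CPM in other cells), and within TP at 231 CPM (197–269) in Edar cells, 211 CPM (192–232) in cells with neither gene and 21.8 CPM in Ntn1 cells. The secreted metalloproteinase Adamts17 was at 18.9 and 102 CPM (14.2 and 19.5 CPM in other cells), and within TP at 169 CPM in Edar cells and 49.5 CPM in Ntn1 cells. In control these genes were scarce: the Edar cells held 9 UMIs of Abi3bp, 7 of them in a single cell, 20 of Slc7a2, 13 of them in a single cell, 11 of Adamts17 and 7 of Fam13a. In that library Abi3bp was highest in cells with neither gene, at 83.8 CPM against 22.9 CPM (10.5–43.4) in Edar cells and 7.80 CPM (3.14–16.1) in Ntn1 cells.

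Kcnd3, a potassium channel, had 7 UMIs in 4 control cells and 237 UMIs in 64 TP cells, 2.41 against 59.9 CPM, while other cells had 3.76 and 6.95 CPM. Zbtb16 (PLZF), a transcription factor induced by glucocorticoids and androgens, was at 29.6 and 289 CPM (9.74-fold, 7.82–12.3), and in other cells at 31.8 and 132 CPM. Samd12 was at 5.86 and 56.4 CPM. Adamts9 was at 71.6 CPM in control and 250 CPM in TP (3.49-fold, 3.01–4.08) but at 57.6 and 40.6 CPM in other cells, so its difference had opposite signs in the epithelial set and outside it. With the rule applied at 2000 UMIs the log2 differences of Abi3bp, Fam13a, Slc7a2, Zbtb16 and Adamts9 were 3.91, 4.10, 3.07, 2.68 and 2.41.

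**Figure D5:**
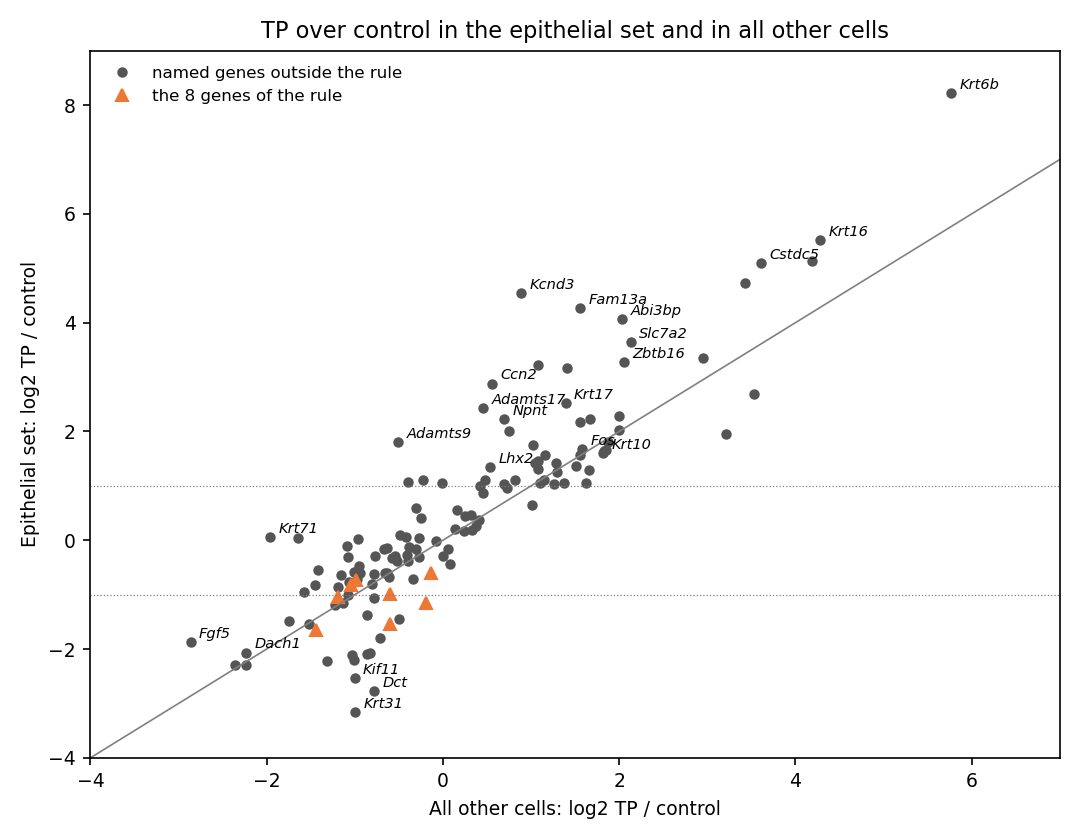
log2 ratio of TP over control for the genes named by rule, in the epithelial set (vertical axis) and in all other cells (horizontal axis), with the diagonal of equal ratios, dotted lines at 2-fold and the genes of the rule as triangles. Abi3bp, Fam13a, Slc7a2, Kcnd3 and Adamts9 lie above the diagonal, Fos and Krt10 near it, and Kif11 and Krt31 below it.

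Part of the outer bulge list was higher in TP. Of 7 outer bulge genes with enough UMIs, 4 were at least 2-fold higher and none lower, with a median log2 difference of 1.35. In all other cells the median was 0.86 over 8 genes, since medians there cover the genes with enough UMIs in all Sox5/Eda cells. The stem cell factor Sox9 was at 12.7 CPM in control and 63.0 CPM in TP (4.94-fold, 3.49–7.18), nephronectin (Npnt), a basement membrane ligand of integrins, at 14.5 and 68.3 CPM (4.72-fold, 3.40–6.70), the matrix protein Postn at 35.1 and 103.9 CPM, and Lhx2 at 57.5 and 146.9 CPM (2.55-fold, 2.15–3.05). Sox9 and Postn were also higher in other cells, at 9.54 and 38.03 CPM and at 41.8 and 93.6 CPM. The stem cell keratin Krt15 was at 317 and 382 CPM and Tcf7l1 at 37.9 and 75.6 CPM, both under 2-fold. Of 10 lower outer root sheath genes 5 were at least 2-fold higher and none lower (median 1.01, and 1.21 in other cells), namely Sox9, Barx2 and the stress keratins Krt16, Krt17 and Krt6a, of which Krt16 and Krt6a had 64.3% and 52.5% of their TP UMIs in a single cell. Of 5 upper follicle genes 3 were higher (medians 1.30 and 1.67). Of 8 hair matrix genes none was past 2-fold either way (-0.22, and -0.95 over 10 genes in other cells). Of 6 companion layer genes, 4 of which are also stress keratins described below, 5 were higher and Krt75 was lower, and of the 5 Serpinb2 lost its difference with the rule applied at 2000 UMIs (log2 of 1.05 and -0.0060).

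At equal depth, cells with UMIs of several bulge genes were more frequent in TP, and without thinning the same held over all cells of the skin (3.57% in control and 19.4% in TP). At least 3 of the 10 outer bulge genes were found in 42 of 506 thinned control cells (8.30%, 6.05–11.1) and 108 of 443 thinned TP cells (24.4%, 20.5–28.7), and without thinning in 6.14% and 43.9%. At least 3 lower outer root sheath genes were found in 23.9% and 45.1% (unthinned 27.9% and 77.4%). At least 3 hair shaft genes were found in 7.91% and 0.903% (unthinned 10.1% and 6.07%), at least 3 hair matrix genes in 17.2% and 12.9% (unthinned 22.2% and 42.7%), and at least 3 inner root sheath genes in 74.9% and 24.2% (unthinned 84.8% and 62.3%). Over all cells of the skin, unthinned shares were 20.6% and 56.9% for lower outer root sheath and 13.5% and 6.08% for hair shaft. They were 84.7% and 52.7% for inner root sheath, so these shifts were not particular to the set. For hair matrix they were 24.97% and 22.6%, without the rise of the unthinned set. In immune cells the summed levels were 414 and 376 CPM for the bulge list, against 685 and 1175 CPM in the epithelial set, and 1437 and 1966 CPM for the outer root sheath list, against 1559 and 3083 CPM. For the hair shaft list they were 553 and 115 CPM, against 987 and 516 CPM. Krt71 was found in 60.5% of thinned immune cells in control and 17.8% in TP, and the part of free RNA in these shares was not tested.

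Of 26 follicle transcription factors with enough UMIs, 5 were at least 2-fold higher (Barx2, Lhx2, Sox9, Sox13 and Tbx1) and none was lower. Tbx1 was at 22.4 and 61.7 CPM (2.76-fold, 2.09–3.68) and Sox13, a relative of Sox5, at 14.8 and 32.1 CPM (2.17-fold, 1.52–3.14), while other cells had 9.09 and 7.75 CPM of Sox13. Cux1, the most abundant factor of the list in control, was at 3284 and 1704 CPM, and in other cells at 1652 and 555 CPM. Of 24 genes of basement membrane and hemidesmosome, 4 were at least 2-fold higher, among them Fras1 and Npnt, and none was lower. Fras1, which anchors epithelium to the matrix below it, was at 94.7 and 201 CPM (2.12-fold, 1.84–2.44) against 56.0 and 42.6 CPM in other cells. Of 8 metalloproteinases and inhibitors, Adamts1, Adamts9 and Adamts17 were higher and none lower. The metalloproteinase Adamts1 was at 12.7 and 117 CPM, and in other cells at 20.5 and 54.5 CPM.

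Genes of the EDA pathway outside the rule differed by less than 2-fold with a single exception. The list held 14 genes with enough UMIs, Eda and Edar of the rule among them. Only Nfkbia, the NF-κB inhibitor that NF-κB induces, was past 2-fold, at 72.0 CPM in control and 178 CPM in TP (2.47-fold, 2.11–2.90), and in other cells at 116 and 244 CPM. The adaptor Edaradd was at 111 and 73.3 CPM, Traf6 at 35.5 and 29.1 CPM, Nfkb1 at 127 and 172 CPM and the EDAR relative Tnfrsf19 at 168 and 175 CPM. Only 2 of 10 target genes had enough UMIs. Ccn2, a matricellular growth factor gene, was at 6.20 and 46.8 CPM (7.55-fold, 4.64–13.02) against 5.98 and 8.78 CPM in other cells, and with the rule applied at 2000 UMIs its log2 difference was 1.17 in place of 2.88. The BMP inhibitor Sostdc1 was at 57.5 and 46.8 CPM.

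The guidance list held 21 genes with enough UMIs, of which 3 were at least 2-fold lower and 1 higher. One of the lower genes is Ntn1, which chose the cells and was not past 2-fold with the rule applied at 2000 UMIs. The others were Robo1, named above, and the basement membrane netrin Ntn4 (52.4 and 25.04 CPM; 0.478-fold, 0.367–0.620). The netrin receptor Neo1 was at 493 and 273 CPM and Unc5b at 65.1 and 36.7 CPM, both also lower in other cells (469 and 205 CPM, 110 and 40.3 CPM). Slit3 was at 340 and 250 CPM. Robo2 was at 24.1 and 52.4 CPM, but with the rule applied at 2000 UMIs its log2 difference changed from 1.11 to -0.22.

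No gene of the 32 measured WNT genes was past 2-fold, with a median of -0.20, and none of the 10 Notch genes. Over all genes of the set 3.76% were higher and 3.54% lower, so few or none in lists of this length is near that share. Lgr5 was at 203 and 317 CPM (1.56-fold, 1.41–1.72), Lef1 at 567 and 388 CPM and the target Axin2 at 46.8 and 30.1 CPM. Of 11 hedgehog genes, Gas1 was higher (9.64 and 33.1 CPM) and the inhibitor Sufu lower (67.9 and 33.6 CPM), while the targets Ptch1 (323 and 332 CPM) and Gli1 (42.4 and 43.0 CPM) had ratios of 1.03 (0.943–1.12) and 1.01 (0.800–1.29). The difference of Gas1 changed sign, from 1.76 to -0.49, when the rule was applied at 2000 UMIs. Of 16 BMP genes Id1 was higher (58.6 and 157 CPM). Of 9 FGF genes Dusp6 and Spry1 were higher and Fgf5, a signal that ends hair growth, was lower, at 42.7 and 11.6 CPM, with 14.2 and 1.95 CPM in other cells. All 4 genes of the TMTC family were measured, and Tmtc2, Tmtc3 and Tmtc4 stayed between -0.38 and 0.38 on the log2 scale.

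Of 18 immediate-early and AP-1 genes, 13 were at least 2-fold higher and none lower, with a median of 1.32 (1.53 over 20 genes in other cells). Fos was at 492 and 1576 CPM, with 668 and 1994 CPM in other cells and 1108 and 2466 CPM in immune cells, and Atf3 at 175 and 711 CPM, with 206 and 821 CPM in other cells. Of 10 androgen and glucocorticoid response genes, Zbtb16, Klf9 (23.1 and 62.5 CPM) and Per1 (15.5 and 33.6 CPM) were higher and none lower, with a median of 0.76 (0.25 over 11 genes in other cells). Fkbp5 was at 39.3 and 76.4 CPM (1.95-fold, 1.56–2.43). Of 12 heat shock genes, Bag3 and Hspb1 were higher, and of 8 MHC class I and interferon genes B2m was.

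The stress keratin Krt6b gave the largest ratio, and Krt16 the next among named genes with at least 200 UMIs, and a single cell held much of the RNA of both. Ccl21a, with 1 and 182 UMIs, lay between them at a log2 difference of 6.48. Krt6b had no UMI in control and 203 UMIs in TP, 51.3 CPM, where a count of 0 in control allows up to 3 UMIs or 1.03 CPM. A single TP cell of 19250 UMIs held 85.2% of these, 64.3% of the 656 UMIs of Krt16 and 41.0% of the 256 UMIs of Cstdc5, and without the richest cell 30 UMIs of Krt6b, 234 of Krt16 and 151 of Cstdc5 remained. Krt16 was found in 77 TP cells and 9 control cells. Without the richest cell of each library the log2 difference was 5.49 for Krt6b and 4.35 for Krt16, against 5.55 for Kcnd3 and 4.64 for Fam13a. Krt6b and Krt6a are near-identical copies whose UMIs may be split uncertainly. Krt17 was spread more widely, at 94.0 and 542 CPM (5.76-fold, 5.08–6.56), with 216 and 566 CPM in other cells. The cornified envelope gene Hrnr was at 9.64 and 100.4 CPM, with 20.2% of its TP UMIs in a single cell.

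Of 8 genes of differentiated epidermis 6 were at least 2-fold higher and none lower, with a median of 1.49 (1.79 in other cells). Krt10 was at 1920 and 5823 CPM, lower than the 3647 and 8333 CPM of immune cells, and the part of free RNA in these levels was not tested. Of 4 hair shaft genes Krt31, Krt35 and Dsg4 were lower, with Krt35 at 264 and 91.0 CPM (370 and 129 CPM in other cells). None of 9 inner root sheath genes was past 2-fold in the whole set. Krt71 was at 1234 and 1282 CPM, and its TP UMIs were concentrated, with 62.5% of them in 5 cells, against 20.3% in control. Leaving out the 64 control and 44 TP cells with UMIs of 7 or more inner root sheath genes, a choice made by the same genes and so only a description, gave 920 and 179 CPM for Krt71 and put 6 of the list more than 2-fold lower in TP.

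Among the lower genes the mitotic ones depended on how the cells were chosen. The spindle motors Kif11 (72.7 CPM in control and 12.4 CPM in TP), Kif15 and Kif4, the spindle factor Tpx2, the cytokinesis kinase Cit and Top2a (337 and 72.8 CPM) differed by -2.54 to -2.07 on the log2 scale. With the rule applied at 2000 UMIs, Kif11 differed by -0.53, Tpx2 by -0.09 and Top2a by -0.27. Top2a is itself in the limit on cycling genes, and that limit was not varied on its own. Of the 17 replication genes Ccnb1 and Cdk1 were lower and none higher, while Mcm2 was at 42.0 and 45.0 CPM and Pcna at 116 and 134 CPM.

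Other lower genes were still past 2-fold with the rule applied at 2000 UMIs, Scube2 only narrowly. Dach1, a transcriptional regulator, was at 282 CPM in control and 67.3 CPM in TP (0.239-fold, 0.207–0.275), and the log2 difference was -2.06 at full depth and -2.45 at 2000 UMIs. In all other cells it was at 416 and 88.4 CPM. Fgf5 differed by -1.87 and -1.86, and Scube2, which releases hedgehog ligands, by -2.30 and -1.05. The melanocyte genes Dct (87.1 and 12.7 CPM) and Kit (83.0 and 16.9 CPM) were also lower, and Dct was at 65.9 and 10.5 CPM in immune cells, nearly its level in the epithelial set.

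Over all Sox5/Eda cells the extremes came largely from the cells that carry markers of other types. Lyve1, a receptor of lymphatic endothelium, had 0 UMIs in control and 250 UMIs in TP (35.7 CPM, where 0 UMIs in control allow up to 3 UMIs or 0.650 CPM), but 7 of these lay in the epithelial set, and the chemokine Ccl21a had 80 and 2666 UMIs, of which 1 and 182 did. Gpc5 was at 12.3 and 189 CPM over all Sox5/Eda cells and at 1.03 and 6.58 CPM in the epithelial set, Aspn at 4.55 and 61.0 CPM and at 3.79 and 9.61 CPM. At the other end were Oca2, Mlana, Pmel and Tyrp1, genes of pigment cells, with Pmel at 74.1 and 8.28 CPM over all and at 28.6 and 4.81 CPM in the epithelial set. Ptgds was at 92.3 and 9.28 CPM over all and at 45.8 and 6.83 CPM in the set. The same rule also named Krt6a, Cxcl1 and Efcab11.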

How the data were processed

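Whole dorsal skin of control and TP mice was profiled with 10x 3′ chemistry, 1 library per group. The authors made the deposited UMI counts per gene and barcode with Cell Ranger 8.0.1 on mm10, per the labels and the submitters' processing notes. The study removed doublets at a later step than these files, and no doublet caller was run here. Cells with UMIs of at least 3 genes of a non-epithelial marker list were left out as an alternative, the epithelial set. Counts were summed over the cells of a set and divided by the set's UMIs (CPM, per 1000000 UMIs). A gene counted as higher or lower when the log2 ratio, with 0.5 UMI added, was at least 1 in size, over genes whose UMIs in both libraries came to 100 or more. Intervals are exact (Poisson, Clopper-Pearson or conditional binomial, 95%) and cover counting error only. The depth was 130999979 and 166929585 UMIs. Cells were grouped by the labels of their library, and with 1 library per group no test was made.

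Immune cells, used to measure free RNA, had UMIs of at least 4 immune genes. Genes were named when among the 10 largest ratios in each direction with at least 200 UMIs (leaving out predicted, mitochondrial and ribosomal genes), among the 20 leading genes over other cells, or in a gene list at 20 CPM or more or past 2-fold. The members and lists were chosen with earlier results of these data known. The alternatives were TMM factors (edgeR 4.0.16 in R 4.3.3, used for the factors only), equal weight per cell, thinning, other minimums, rule thresholds and mitochondrial limits, 10 CPM added, leaving out the 7.5% of cells with the most UMIs, and, added after seeing the data, the rule applied at 2000 UMIs, the epithelial set as a base, and single cells or inner root sheath cells left out. The calls were tested on simulated data. These were summed counts with counting error only and set differences larger than 2-fold, so variation between cells or libraries was not covered. Gene positions are from RefSeq for GRCm38, matched by symbol for 517 of 517 genes. Python 3.11.15, numpy 2.4.6, scipy 1.17.1, pandas 2.3.3 and matplotlib 3.10.9 were used. Some genes named by the rule are not reported here.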

Additional observations from a re-analysis of the deposited data

How the results depend on the processing

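No paired analysis was possible because each group had 1 library. The share ratio of 1.08 was 1.21 with a mitochondrial limit of 5%, 0.951 without cells with markers of another type, and 0.481, 0.7499 and 0.810 with cells thinned to 1000, 2000 and 4000 UMIs, or 0.509, 0.881 and 1.04 at these depths without cells with markers of another type. Over all Sox5/Eda cells, 459 genes were higher and 386 lower in TP. The count of higher genes was 729 with equal weight per cell and 113 with the rule applied at 2000 UMIs, where 276 were lower (29.0% higher in place of 54.3%). Higher and lower counts were 150 and 105 with cells thinned to 2000 UMIs, 222 and 180 with at least 5 of the 8 genes, 217 and 151 with 10 CPM added, and 1965 and 3165 with no minimum. In the epithelial set, with 313 and 295, the lower count was 178 with TMM factors, and both counts were 101 and 66 with thinning, 188 and 136 with 10 CPM added, 89 and 102 with the rule applied at 2000 UMIs, and 292 and 300 without cells with UMIs of 7 or more inner root sheath genes. Thinning leaves fewer UMIs, so fewer genes reach the minimum of 100. With the rule applied at 2000 UMIs the log2 differences of Gas1, Robo2 and Serpinb2, which had been past 2-fold, changed sign, to -0.49, -0.22 and -0.0060. Smaller differences also did, among them those of Eda, Edar, Sox5 and Timp3, and the cause was not tested. Of 1190 values of genes and lists under the alternatives, 716 stayed within their counting interval (list medians within 1.5 times), 471 moved further and 3 that were past 2-fold changed sign. Alternatives based on the epithelial set or on the rule at 2000 UMIs were chosen after seeing the data. The depth difference between the libraries, 2256.5 against 7506.5 UMIs per chosen cell, limits every share of cells with a UMI, and the lack of replicates limits every difference between the groups.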
